A study of Mus musculus with 6 samples.

Results

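Ubiquitin-conjugating (E2) enzymes carry activated ubiquitin, or a related modifier such as NEDD8, SUMO or ISG15, on a catalytic cysteine and pass it on to substrates together with an E3 ligase. With E3 ligases of the RING class, the E2 enzyme largely sets which kind of chain is built. The genes described here are the protein-coding mouse genes whose symbol starts with Ube2, leaving out Ube2c, that had at least 1 count in at least 3 of the 6 libraries. This rule selected 31 genes out of 55357 gene identifiers, of which 21137 had at least 1 count. Of the 37 protein-coding genes with such a symbol, 5 were not detected in enough libraries. Ube2d2b, Ube2dnl1, Ube2dnl2 and Ube2ql1 had 0 counts in every library, and Ube2u had 40 counts in knockout replicate 3 and 0 in the other libraries. The library floor of 3 counts corresponds to 0.134 to 0.207 CPM (counts scaled to library size) and covers counting error only. One selected gene, Ube2cbp, has the synonym Ube3d in RefSeq and encodes a ligase, not an E2 enzyme, so the label holds for the other 30 genes, of which Ube2v1 and Ube2v2 encode E2 variants without the catalytic cysteine.

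The libraries came from LT-HSCs, the long-term haematopoietic stem cells that renew themselves and sustain all blood lineages. They were taken by flow sorting from marrow of mice at a young age as cells without lineage markers that carried Sca-1, c-Kit and CD150 but not CD48. There were 3 Dcaf8 knockout (KO) mice and 3 wild-type (WT) controls, with 50 cells and 1 library per mouse. The sources used here do not say how the knockout allele was made or whether a Cre driver was used. The study asked how loss of Dcaf8 impairs the stem cells. DCAF8 recruits substrates to ligases built on CUL4 and DDB1, which belong to the cullin-RING class. These ligases need a NEDD8-carrying E2 enzyme to become active and ubiquitin-carrying E2 enzymes to mark their substrates. Among E2 enzymes with known roles in blood, Ube2n is needed for haematopoiesis in mice, and mutations of human UBE2T cause Fanconi anaemia, a bone marrow failure syndrome.

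Total counts were 14461864 to 22386387 in knockout and 17790290 to 20881139 in wild-type libraries. Dcaf8 stood at 74.3, 38.1 and 45.2 TMM-normalised CPM, the scale of the gene levels below, in knockout replicates 1 to 3, against 291, 293 and 204 CPM in wild-type replicates 1 to 3. Its log2 fold change was -2.28 ± 0.28 (SE, n = 3 per group), and the groups did not overlap. The edgeR adjusted p was 0.739, and over 16 alternatives it ranged from 1.98e-09, by DESeq2, to 1. On CPM of the total count, used for marker sums and for Xist and Y-linked genes, the 8 HSC markers, among them Hlf, Procr and Slamf1, summed to 1939 to 2291 CPM in knockout and 2059 to 2180 CPM in wild-type libraries, and none was at 0 throughout. The 8 neutrophil markers summed to 6206 CPM in wild-type replicate 2 and to at most 29.4 CPM in any other library. Xist stood at 50.7 CPM in knockout replicate 3 and at most 1.24 CPM elsewhere, while the Y-linked genes Ddx3y, Eif2s3y, Kdm5d and Uty summed to 0.181 CPM there and at least 255 CPM elsewhere. Read as markers of sex, these genes set knockout replicate 3 apart as female from the other libraries as male. Sex was then not balanced between genotypes, and its part in the gene levels was not tested.

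As a group, the E2 genes stood at similar levels in knockout and wild-type LT-HSCs, and none was called by the test. The same test called no gene at all, not even Dcaf8. The lack of calls therefore does not show that no E2 gene changed. All 31 passed the filter on low counts and entered edgeR's quasi-likelihood test across 14592 genes. By edgeR with Benjamini-Hochberg adjustment 0 of the 31 were called, with a background of 0% of all genes tested, and their adjusted p-values ran from 0.841 to 1. DESeq2 and limma-voom also called 0 of them, although DESeq2 called 0.861% of all genes. At an unadjusted p under 0.05 edgeR gave 2 E2 genes, Ube2b and Ube2j2, or 6.45%, which is close to the background of 5.82% of all genes. Both had lower fitted values in knockout, a direction in which 2.35% of all genes had such a p, against 3.47% in the other. DESeq2 gave 3 of the 31, or 9.68%, against 5.68% of all genes, and limma-voom gave 2, or 6.45%, against 5.31% of all genes. Whether these shares exceed the background was not tested. Fitted values were higher in knockout for 14 genes and lower for 17. The median log2 fold change was -0.05 over the E2 genes and 0.01 over all genes tested, and the median size regardless of direction was 0.22 and 0.31. In bulk libraries such as these, fewer cells of a type and less RNA per cell cannot be told apart.

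A p that misses the threshold does not show that a gene did not differ, so the intervals were read as well. For 17 of the 31 genes the 95% interval of the log2 fold change lay between -1 and 1, inside a 2-fold difference in either direction. Over all genes tested 29.7% had such an interval. These 17 included some partners of cullin-RING ligases, Ube2d3, Ube2g1 and Ube2r2, the NEDD8 enzyme gene Ube2f and the K63-chain enzyme gene Ube2n. For the other 14 the interval reached past a 2-fold difference in at least 1 direction, so that such a difference lies within it. Among them were Ube2d1, with an interval from -1.13 to 0.13, Ube2e2, from -0.23 to 1.47, and the NEDD8 enzyme gene that acts on CUL4, Ube2m, from -1.37 to 1.10. The interval of Ube2o, for example, ran from -2.42 to 0.98.

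**Figure D1:**
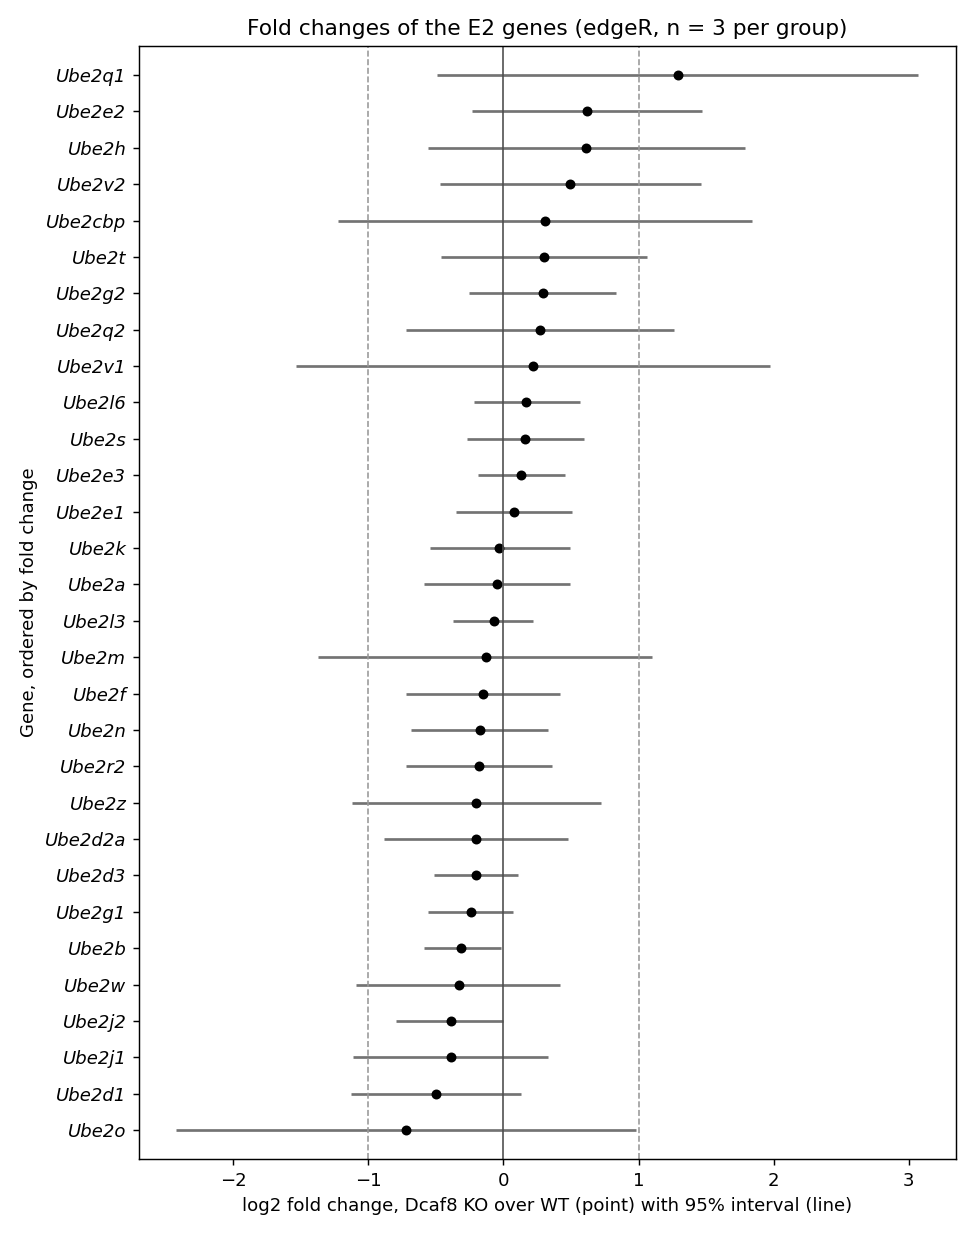
Log2 fold change of 30 of the E2 genes, Dcaf8 KO over WT, as a point with its 95% interval from edgeR's quasi-likelihood fit (n = 3 per group, not adjusted for the number of genes). The dashed lines mark a 2-fold difference, and the intervals of 16 genes shown lie between them, while those of Ube2q1, Ube2o, Ube2v1 and Ube2cbp are the widest.

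The family spanned a wide range of levels. Averaged over the 6 libraries, 14 genes stood at 100 CPM or more, 10 between 20 and 100 CPM and 7 under 20 CPM. Ube2d3 alone took 16.3 to 21.2% of the summed CPM of the family in each library. The 31 genes summed to 3897 ± 138 CPM in knockout and 4051 ± 179 CPM in wild-type libraries (SD, n = 3 per group). By library the sums were 3737, 3975 and 3978 CPM in knockout replicates 1 to 3, against 3863, 4218 and 4073 CPM in wild-type replicates 1 to 3, so the groups overlapped. Per kilobase of coding transcript, the scale on which genes can be compared, Ube2d3 was highest at 285 CPM per kilobase, and Ube2b at 210.3 and Ube2l6 at 202 CPM per kilobase were also near the top. Levels were lowest for Ube2v1 at 0.698 and Ube2o at 1.53 CPM per kilobase. That of Ube2v1 is uncertain, since its exons are shared with another annotated gene, as described below. The upper end of this order depends on the length used. With the merged length of all annotated exons Ube2l6 came first and Ube2d3, whose merged exons are 24499 bases long, came in place 13, whereas Ube2o and Ube2v1 stayed last.

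**Figure D2:**
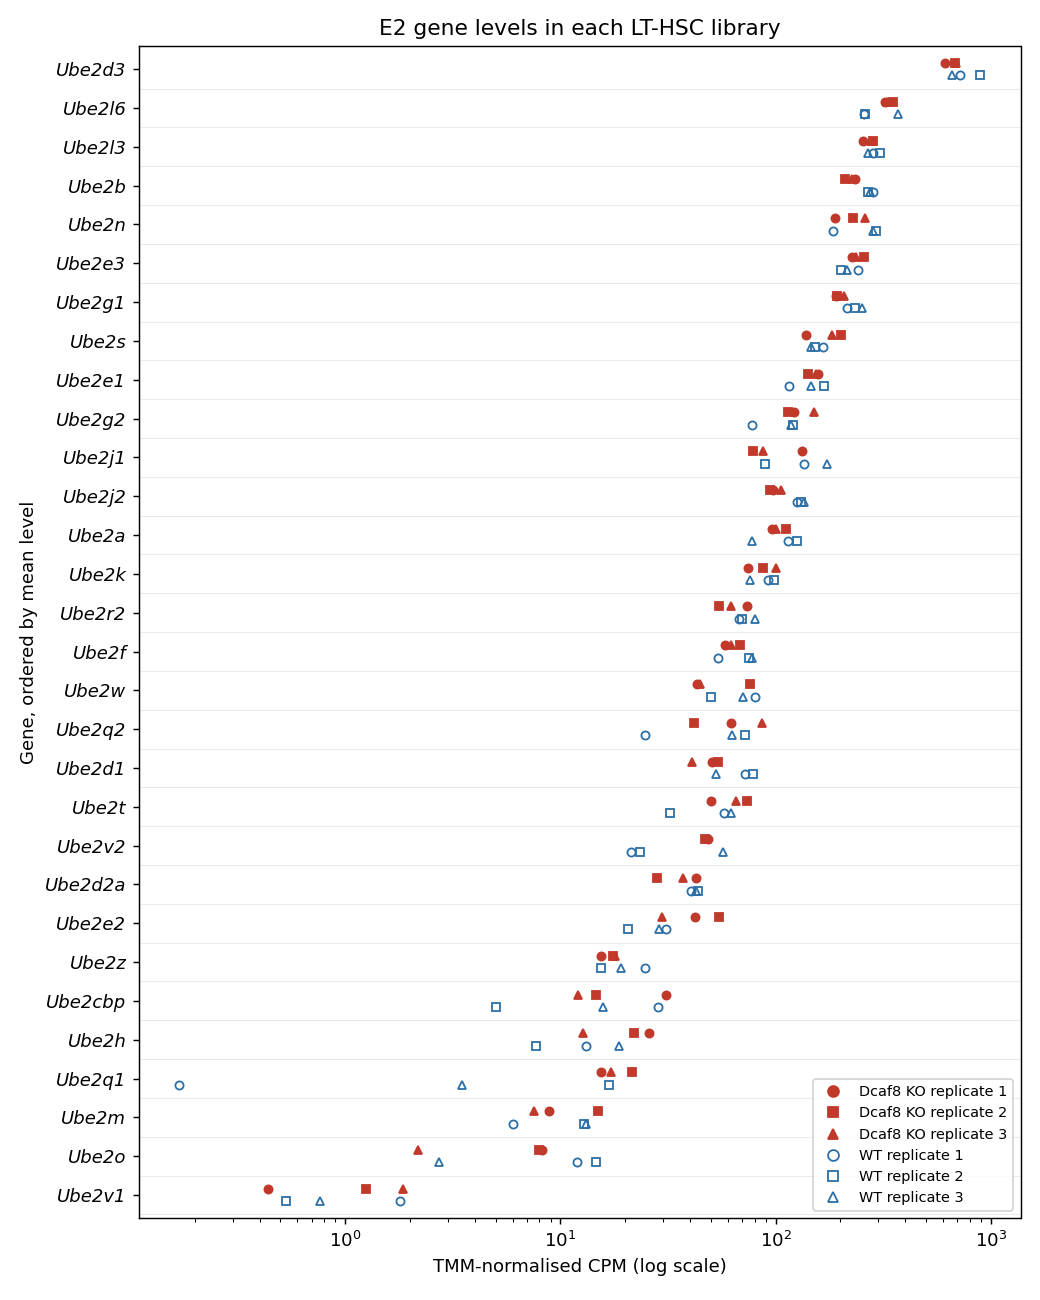
TMM-normalised CPM of 30 of the genes in each library on a log scale, ordered by mean level, with filled red symbols for Dcaf8 KO and open blue symbols for WT mice. Knockout and wild-type points lie among each other for most genes, from Ube2d3 at the top to Ube2v1 at the bottom.

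The first group of genes encodes the enzymes that put the first ubiquitin on substrates of cullin-RING and many other RING ligases. Ube2d3, the most abundant of them, stood at 614, 683 and 691 CPM in knockout replicates 1 to 3, against 717, 896 and 664 CPM in wild-type replicates 1 to 3. The groups overlapped, and the highest library was wild-type replicate 2, the one with neutrophil transcripts, whose part in this value was not tested. The log2 fold change of Ube2d3, -0.20 ± 0.13 (SE), was -0.06 without that library.

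Its close relative Ube2d1 stood at 50.8, 54.2 and 40.8 CPM in knockout and at 72.3, 78.3 and 53.0 CPM in wild-type libraries, a log2 fold change of -0.50 ± 0.27 with an unadjusted p of 0.107 by edgeR. Here 1 knockout library, replicate 2, lay above the lowest wild-type library, replicate 3. Ube2d2a, the third of these near-identical enzymes, stood at 42.5, 28.1 and 37.1 CPM in knockout and at 40.3, 43.4 and 42.7 CPM in wild-type libraries. All 3 Ube2d genes therefore had lower means in knockout cells, and in all 3 the groups overlapped. Because the Ube2d genes and their pseudogenes are close copies, reads could have been split or lost among them in the authors' counting. The pseudogene Ube2d-ps itself stood at 11.8 to 38.9 CPM in knockout and 11.5 to 31.9 CPM in wild-type libraries.

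The Ube2e genes encode relatives with an extended amino terminus. Ube2e2 stood at 42.2, 54.9 and 29.7 CPM in knockout replicates 1 to 3, against 31.1, 20.6 and 28.8 CPM in wild-type replicates 1 to 3. Of the genes with higher fitted values it had the smallest unadjusted p, 0.129 by edgeR, with a fitted difference of 0.62 ± 0.37 on the log2 scale (SE, n = 3 per group), and the groups overlapped through knockout replicate 3. The more abundant Ube2e1 and Ube2e3 averaged 151 ± 7.64 and 241 ± 16.3 CPM in knockout, against 143 ± 26.4 and 219 ± 20.4 CPM in wild-type libraries (SD, n = 3 per group). The Ube2d and Ube2e genes together summed to 1133, 1221 and 1190 CPM in knockout and to 1218, 1408 and 1149 CPM in wild-type libraries, so that their joint level overlapped as well.

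Genes for enzymes that extend K48-linked chains, the signal read by the proteasome, came next. In human cells UBE2G1 extends chains on substrates of CUL4-based ligases after UBE2D3 has placed the first ubiquitin. Ube2g1 stood at 191, 194 and 208 CPM in knockout replicates 1 to 3, against 216, 234 and 251 CPM in wild-type replicates 1 to 3. The knockout libraries all lay below the wild-type ones. The difference was small, at -0.24 ± 0.14 on the log2 scale (SE, n = 3 per group) with a 95% interval from -0.56 to 0.07, and it did not pass edgeR's test (unadjusted p = 0.110, adjusted p = 0.898). Over 16 alternatives the log2 fold change ranged from -0.30 to -0.19 and the adjusted p from 0.559 to 1.

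Ube2r2, a Cdc34-type enzyme that works with cullin ligases, stood at 73.8, 54.4 and 61.9 CPM in knockout and at 67.3, 70.2 and 79.9 CPM in wild-type libraries, and the groups overlapped. Ube2k, which builds K48 chains on its own, averaged 87.4 ± 13.2 CPM in knockout and 88.9 ± 11.6 CPM in wild-type libraries (SD, n = 3 per group), the smallest fitted difference of the family at a log2 fold change of -0.03.

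The modifier NEDD8 is attached to cullins by the products of Ube2m, which works with RBX1 and so with CUL4, and Ube2f, which works with RNF7 and CUL5. Ube2m was among the least abundant members, at 8.85, 15 and 7.55 CPM in knockout and 6.02, 12.9 and 13.1 CPM in wild-type libraries. Its groups overlapped fully, and its log2 fold change was -0.13 ± 0.53 (SE). Ube2f stood at 58.3, 68.7 and 61.9 CPM in knockout, against 54.0, 75.2 and 77.8 CPM in wild-type libraries, and here too the groups overlapped.

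The modifier ISG15, which is induced by interferon, has an E2 gene of its own. Ube2l6, the interferon-inducible enzyme for ISG15, stood at 322, 352 and 328 CPM in knockout, against 258, 259.6 and 369.8 CPM in wild-type libraries. Wild-type replicate 3 was the highest library of all and the other 2 wild-type libraries were the lowest, so the groups overlapped. A list of 12 interferon-stimulated genes summed to 511, 449 and 763 CPM in knockout and to 344, 402 and 640.5 CPM in wild-type libraries. Wild-type replicate 3 was again the highest of its group. In knockout mice the order differed, since replicate 2 had the lowest sum and the highest Ube2l6. Of the 11 interferon-stimulated genes tested, 9 had higher and 2 lower fitted values in knockout. Their median log2 fold change was 0.44, and edgeR called 0 of them. The part of interferon-stimulated expression in the Ube2l6 values was not tested. For Ube2l6 the log2 fold change of 0.17 became 0.37 when wild-type replicate 3 was left out and 0.08 when either other wild-type library was.

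Chains linked through K63, used in NF-kB signalling and DNA damage tolerance, are built by UBE2N with one of the catalytically inactive partners UBE2V1 and UBE2V2. Ube2n stood at 188, 229.8 and 260.2 CPM in knockout and at 184, 294 and 284 CPM in wild-type libraries, and in both genotypes replicate 1 was the lowest, so the groups overlapped. Ube2v2 was steady between knockout mice, at 48.6, 47.2 and 48.1 CPM, but not between wild-type mice, at 21.2, 23.5 and 56.9 CPM. Its log2 fold change of 0.49 ± 0.41 (SE) moved with each wild-type mouse, being 0.26, 0.27 and 1.10 when wild-type replicates 1, 2 and 3 were left out in turn. Ube2v1 was almost uncounted, with 10, 18 and 41 counts in knockout and 32, 11 and 15 counts in wild-type libraries. In the GENCODE annotation of GRCm38 its exons are shared, on the same strand, with the read-through gene Gm20431, which had 0 counts in every library, while the upstream gene Tmem189 stood at 79.3 to 132 CPM in knockout and 77.7 to 118 CPM in wild-type libraries. Reads that match several genes may not have been assigned to any of them, so the level of Ube2v1 is uncertain and the part of this in its low count was not tested.

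The Rad6 enzymes, encoded by Ube2a and Ube2b, ubiquitylate histone H2B with RNF20 and RNF40 and PCNA with RAD18. Ube2b had the smallest p of the family. It stood at 233, 210.1 and 226 CPM in knockout replicates 1 to 3, against 285, 270.0 and 276 CPM in wild-type replicates 1 to 3. All knockout values lay below all wild-type values, with little spread on either side. Its log2 fold change was -0.31 ± 0.12 (SE, n = 3 per group) with a 95% interval from -0.59 to -0.02. It did not pass edgeR's test, with an unadjusted p of 0.0371 and an adjusted p of 0.841. Over 16 alternatives the log2 fold change ranged from -0.34 to -0.27 and the adjusted p from 0.0868, by DESeq2, to 1. The unadjusted p by DESeq2 was 0.000932. The paralogue Ube2a, on the X chromosome, showed no such separation, at 96.6, 112 and 100.2 CPM in knockout and 114, 126 and 77.4 CPM in wild-type libraries. Knockout replicate 3, the library with Xist counts, lay between the other knockout libraries for Ube2a. Whether the difference of Ube2b exceeds that of Ube2a was not tested.

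Enzymes of degradation from the endoplasmic reticulum, where misfolded proteins are pulled back into the cytosol and marked, are encoded by Ube2g2, Ube2j1 and Ube2j2. Ube2j2, which is anchored in the membrane, stood at 97.7, 94.0 and 106 CPM in knockout replicates 1 to 3, against 126, 131 and 136 CPM in wild-type replicates 1 to 3. Here too the genotypes did not overlap, with knockout lower, and the spread within each genotype was small. The log2 fold change was -0.39 ± 0.17 (SE, n = 3 per group), with an unadjusted p of 0.0485 and an adjusted p of 0.857 by edgeR. Over 16 alternatives the log2 fold change ranged from -0.45 to -0.36 and the adjusted p from 0.113, by DESeq2, to 1. The unadjusted p by DESeq2 was 0.00137. The second membrane-anchored enzyme gene, Ube2j1, averaged 99.5 ± 29.1 CPM in knockout and 132 ± 41.8 CPM in wild-type libraries and overlapped between genotypes. Ube2g2, the soluble enzyme of this set, had a higher mean in knockout, with 122, 114 and 150.4 CPM in knockout and 77.7, 121 and 118 CPM in wild-type libraries, and its log2 fold change, 0.29 over all libraries, ranged from 0.12, when wild-type replicate 1 was left out, to 0.40, when wild-type replicate 2 was.

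Ube2b, Ube2g1 and Ube2j2 were thus the only E2 genes whose groups did not overlap, all with lower values in knockout. That is 9.68% of the family, while the groups of 10.3% of all genes tested did not overlap, 4.43% with lower and 5.91% with higher values in knockout. A share this near the background is not a result about the family. All 3 genes are also among the 5 whose coefficient of variation (CV) was under 10% in both genotypes.

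**Figure D3:**
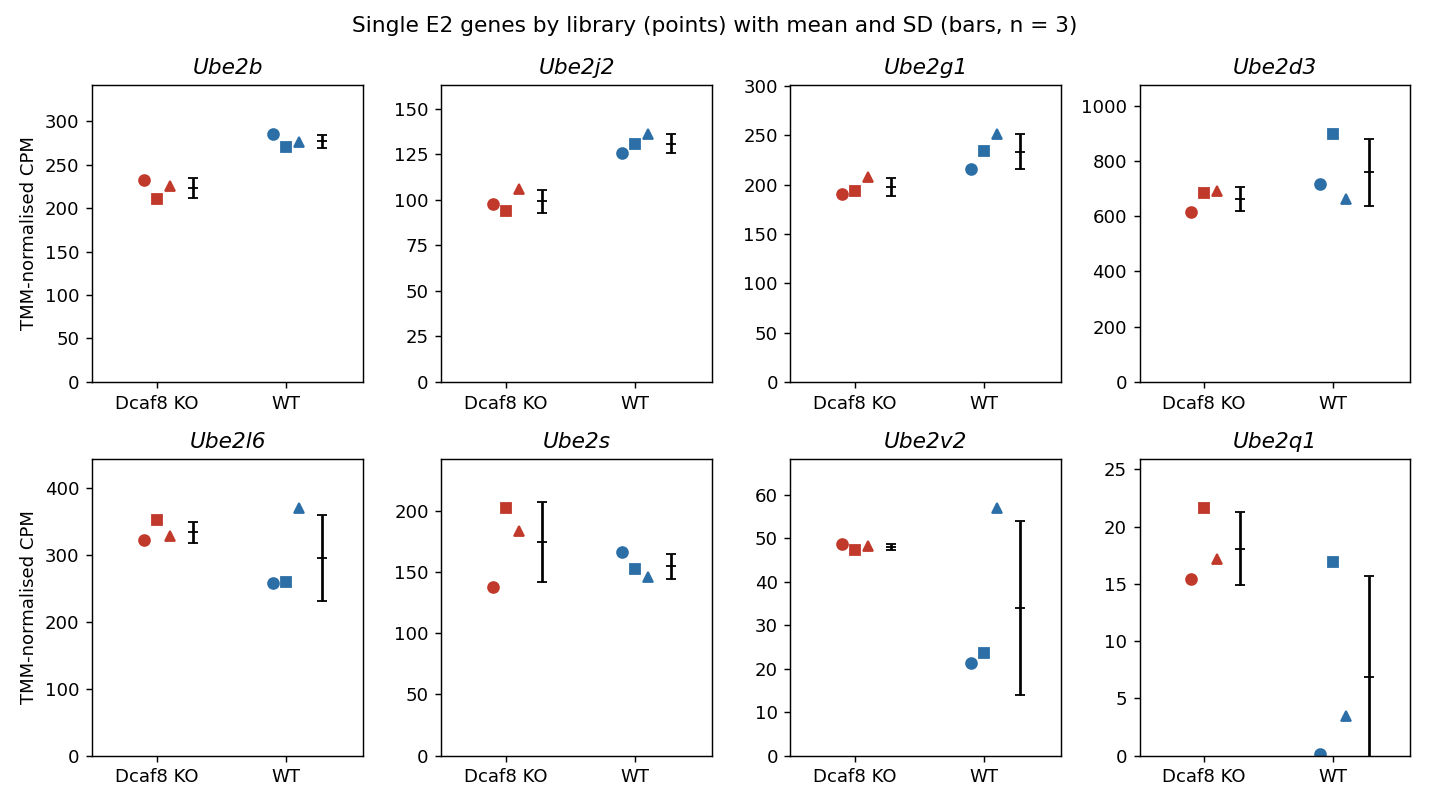
TMM-normalised CPM of 8 E2 genes by library, with Dcaf8 KO points left of WT points and bars for mean and SD (n = 3 each, the WT bar of Ube2q1 being drawn from 0). The knockout points of Ube2b, Ube2j2 and Ube2g1 lie below all wild-type points, whereas the other 5 genes overlap, and Ube2v2 and Ube2q1 spread widely between wild-type mice.

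The promoters of these 3 genes are shown because theirs were the only values that stood apart between genotypes. They are RefSeq windows of 300 bases, 250 before and 50 after an annotated start, on build GRCm38.p6, given 5′ to 3′ on the strand of the gene. Where 2 windows are listed, as for Ube2b and Ube2j2, the more upstream one is printed. Capitals mark matches, on either strand, to 8 motifs that were searched: the CCAAT box (CCAAT), GC box (GGGCGG), ETS (CCGGAAG), NRF1, CRE (TGACGTCA), E-box (CACGTG), ISRE and CHR (TTTGAA) motifs.
Ube2b, chr11:52000737-52001036, minus strand: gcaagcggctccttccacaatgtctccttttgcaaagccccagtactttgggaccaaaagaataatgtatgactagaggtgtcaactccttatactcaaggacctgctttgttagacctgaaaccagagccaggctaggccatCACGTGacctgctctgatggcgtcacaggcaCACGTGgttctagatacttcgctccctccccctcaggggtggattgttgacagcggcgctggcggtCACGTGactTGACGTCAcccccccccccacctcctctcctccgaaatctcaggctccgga
Ube2j2, chr4:155943563-155943862, plus strand: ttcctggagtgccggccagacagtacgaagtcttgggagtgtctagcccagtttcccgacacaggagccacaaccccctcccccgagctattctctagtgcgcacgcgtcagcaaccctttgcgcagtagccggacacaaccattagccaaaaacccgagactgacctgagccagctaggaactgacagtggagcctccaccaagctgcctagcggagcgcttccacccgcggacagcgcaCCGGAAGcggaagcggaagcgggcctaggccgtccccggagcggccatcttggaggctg
Ube2g1, chr11:72607011-72607310, plus strand: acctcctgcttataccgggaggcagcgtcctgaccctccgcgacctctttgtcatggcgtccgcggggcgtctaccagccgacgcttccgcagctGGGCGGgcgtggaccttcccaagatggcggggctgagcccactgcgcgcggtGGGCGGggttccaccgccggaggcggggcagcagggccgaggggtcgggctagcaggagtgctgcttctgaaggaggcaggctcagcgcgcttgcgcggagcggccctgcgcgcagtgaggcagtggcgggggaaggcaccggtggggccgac
The Ube2b window contained CACGTG at 3 places and TGACGTCA at 1, which did not overlap each other. CACGTG was found in 7.15% and TGACGTCA in 1.79% of all 32817 promoter windows. The Ube2j2 window contained 1 CCGGAAG, a motif of 8.86% of all windows, and the Ube2g1 window contained GGGCGG at 2 places. No motif was shared by the 3 printed windows. Counting every listed window of a gene, all 3 genes had GGGCGG, and both Ube2b and Ube2j2 had CCGGAAG. Across the family 24 genes had a window in the table, 35 windows in all. GGGCGG was found in 77.1% of them, against 35.6% of all windows, and CCAAT in 14.3%, against 37.4% of all windows. By gene, 21 and 5 of the 24 had these motifs. The background windows were not matched to the E2 genes for level, so whether these shares are particular to the family was not tested. A match describes letters and is not evidence of a bound factor, and a missing match says only that these letters are not in the window.

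Enzymes of mitosis and DNA crosslink repair are encoded by Ube2s, which extends K11 chains with the anaphase-promoting complex, and Ube2t, which acts with FANCL in the Fanconi anaemia pathway. Ube2s stood at 138, 202 and 183 CPM in knockout and at 166, 152 and 146 CPM in wild-type libraries. Ube2t stood at 49.9, 73.8 and 65.2 CPM in knockout, against 57.9, 32.2 and 62.0 CPM in wild-type libraries. Both overlapped between genotypes, with log2 fold changes of 0.16 ± 0.19 and 0.30 ± 0.32 (SE, n = 3 per group). With single libraries left out, that of Ube2s ranged from 0.06, without knockout replicate 2, to 0.31, without knockout replicate 1, and that of Ube2t from 0.05, without wild-type replicate 2, to 0.48, without wild-type replicate 3. The 11 markers of cycling cells, among them Mki67 and Plk1, summed to 1053, 1660 and 1171 CPM in knockout and to 1751, 493 and 391 CPM in wild-type libraries, and none was at 0 throughout. Singly, 10 of these markers had higher and 1 lower fitted values in knockout. Their median log2 fold change was 0.71, and edgeR called 0 of them. In both genotypes the library with the highest marker sum, knockout replicate 2 and wild-type replicate 1, was also the highest for Ube2s. Ube2t did not follow them in this way in wild-type mice, where replicate 3 had the lowest marker sum and the highest Ube2t. The part of cycling cells in the Ube2s and Ube2t values was not tested.

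Exons of Ube2s overlap Rpl28, those of Ube2e1 overlap Nkiras1 and those of Ube2l3 overlap Ydjc on the opposite strand, and since the strand setting of the counting is unknown, reads of such pairs cannot be told apart. Rpl28 stood at 91.9 to 122 CPM in knockout and 91 to 115 CPM in wild-type libraries. On the same strand, exons of Ube2g2 overlap the protein-coding gene Gm49325 and those of Ube2d2a overlap AC141471.2. Both of these other genes had 0 counts in every library. Reads that match both genes of such a pair may not have been assigned, so the levels of Ube2g2 and Ube2d2a are also uncertain.

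The remaining members were mostly genes of low or uneven level. Ube2h, the E2 gene of the CTLH ligase, which is known from red cell maturation, stood at 25.8, 22 and 12.8 CPM in knockout and at 13.2, 7.71 and 18.7 CPM in wild-type libraries. The log2 fold change of Ube2h, 0.61 ± 0.50 (SE, n = 3 per group), lay between 0.32 and 0.97 when single mice were left out. Ube2o, a combined E2 and E3 enzyme of reticulocytes, averaged 6.14 ± 3.44 CPM in knockout and 9.77 ± 6.25 CPM in wild-type libraries (SD, n = 3 per group). The 7 erythroid markers summed to 129 to 218 CPM in knockout and 127 to 148 CPM in wild-type libraries, and 1 of them was at 0 throughout.

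Ube2q1 had the largest fitted fold change of the family, 1.29 on the log2 scale, and also the widest spread between wild-type mice. It had 351, 311 and 381 counts in knockout replicates 1 to 3, which is 15.4, 21.6 and 17.2 CPM, against 3, 349 and 69 counts in wild-type replicates 1 to 3, which is 0.169, 16.9 and 3.50 CPM. The value of wild-type replicate 1 lay at the library floor of 3 counts. The knockout libraries were alike, and 1 wild-type library, replicate 2, the one with neutrophil transcripts, lay among them. The part of that library's neutrophil transcripts in its value was not tested. The log2 fold change was 3.20 without that library and 0.77 without wild-type replicate 1, so single mice set its size, and it did not pass edgeR's test (unadjusted p = 0.132, adjusted p = 0.911). Ube2q2 averaged 63.4 ± 22.6 CPM in knockout and 53.2 ± 25.0 CPM in wild-type libraries (SD, n = 3 per group). The amino-terminal ubiquitin enzyme gene Ube2w averaged 54.7 ± 18.7 and 66.9 ± 15.3 CPM in knockout and wild-type libraries, and Ube2z, whose product is charged by UBA6, averaged 17.0 ± 1.34 and 19.7 ± 4.67 CPM in the same order. Ube2l3, the E2 gene for HECT and RING-between-RING ligases, varied least over all 6 libraries, at 255 to 285 CPM in knockout and 268 to 307 CPM in wild-type libraries.

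Spread between mice of 1 genotype ranged widely between the members. The median CV of the E2 genes was 15.1% between knockout mice and 21.7% between wild-type mice. Over all genes tested it was 28.7% and 36.5% in knockout and wild-type mice, and over the 11507 genes with a mean of at least 5 CPM it was 24.3% and 30.8%. The E2 genes were more abundant than the average gene, with a median level of 67.9 CPM against 28 CPM over all genes tested. For 22 of 31 E2 genes, or 71.0%, the spread was larger between wild-type than between knockout mice, while 62.2% of all genes showed this. The highest library exceeded the lowest by less than 2-fold for 20 of the 31 genes. Ube2b, Ube2e3, Ube2g1, Ube2j2 and Ube2l3 had a CV under 10% in both genotypes, which was true of 2.70% of all genes tested.

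**Figure D4:**
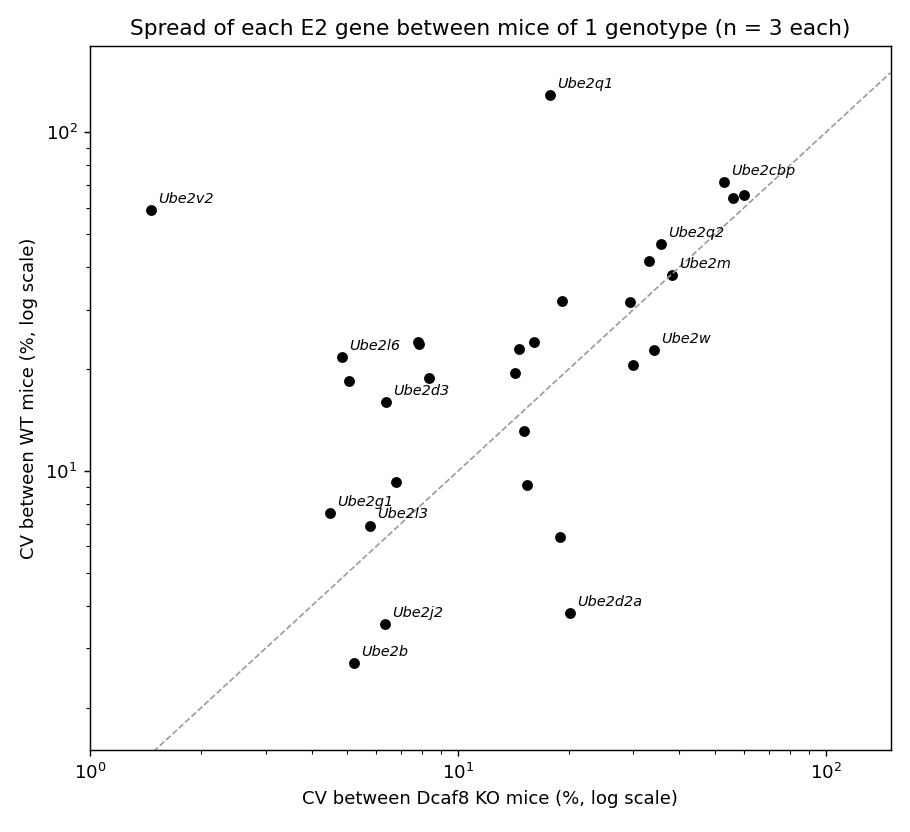
Coefficient of variation of 30 of the E2 genes between the 3 Dcaf8 KO mice (x axis) and the 3 WT mice (y axis), in percent on log scales, with a dashed line of equality. A total of 21 genes shown lie above the line, farthest Ube2v2 and Ube2q1, and Ube2b, Ube2j2, Ube2g1 and Ube2l3 lie at the low end of both axes.

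Genes that act before and after the E2 enzymes were not called either. Of 54 genes in 4 lists, all tested, 0 were called by edgeR or DESeq2, against 0% and 0.861% of all genes. With so few calls over all genes, this is not a result about these lists. At an unadjusted p under 0.05 edgeR gave 1 and DESeq2 gave 1, against 5.82% and 5.68% of all genes. In the 4 lists 28 genes had higher and 26 lower fitted values in knockout. The median log2 fold change of the 54 genes was 0.04. Among the 9 genes of E1 activating enzymes, which charge the E2 enzymes, 3 had higher and 6 lower fitted values. Atg7, the E1 enzyme of autophagy, averaged 41.4 ± 2.01 CPM in knockout and 68.4 ± 29.0 CPM in wild-type libraries, and Uba2, a subunit of the SUMO E1 enzyme, averaged 251 ± 26.0 and 210.4 ± 21.8 CPM in knockout and wild-type libraries (SD, n = 3 per group).

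Among the 13 genes of ubiquitin and related modifiers, 6 had higher and 7 lower fitted values in knockout. Ufm1, which encodes a ubiquitin-like modifier, stood at 45.8, 48.6 and 47.5 CPM in knockout replicates 1 to 3, against 60.0, 112 and 67.8 CPM in wild-type replicates 1 to 3. It alone of the 4 lists had an edgeR unadjusted p under 0.05, with an edgeR adjusted p of 0.841 in the test across all genes. Its fitted difference on the log2 scale was -0.77 ± 0.31 (SE, n = 3 per group). The polyubiquitin gene Ubb stood at 1146 to 1453 CPM in knockout and 1365 to 1568 CPM in wild-type libraries.

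Of 7 genes for E2-like proteins without the Ube2 name, 5 had higher fitted values in knockout, led by Aktip at 63.4 ± 16.9 CPM in knockout and 41.8 ± 12.4 CPM in wild-type libraries and Atg10 at 31.2 ± 11.6 and 19.1 ± 4.46 CPM in the same order (SD, n = 3 per group). Of 25 partner ligase genes 14 had higher and 11 lower fitted values. Ranbp2, a SUMO ligase of the nuclear pore, averaged 31.6 ± 19.8 CPM in knockout and 58.3 ± 29.3 CPM in wild-type libraries (SD, n = 3 per group). None of the genes named from these lists passed edgeR's test, with adjusted p-values from 0.841 to 0.923.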

How the data were processed

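The authors deposited raw read counts per Ensembl gene, 1 column per library. Per the submitters' processing notes, Trimmomatic 0.39, HISAT2 2.2.1, Picard 2.26.1, HTSeq 1.99.2, DESeq2 1.38.3 and build mm39 were used, with no roles stated. The sources used here give neither the annotation release nor the strand setting. Per the labels' protocols, cDNA of 50 cells was amplified full-length and tagmented, and molecular identifiers are not mentioned.

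Symbols matched 94.08% of identifiers (99.87% of counts). Biotypes, exon overlaps and lengths came from GENCODE M21 (GRCm38). The main test was edgeR 4.0.16 in R 4.3.3 on the counts: filterByExpr (minimum count 10, total 15), TMM, robust quasi-likelihood fit (legacy off), genotype as the only term, Benjamini-Hochberg over all 14592 genes, threshold 0.05. Standard errors and 95% intervals came from the F statistic. Scripts were tested on simulated data. Alternatives were DESeq2 1.42.0, limma-voom 3.58.1 with sample weights, the legacy fit, a replicate block, size factors by RLE or by upper quartile, all genes unfiltered, a floor of 5 CPM in 3 libraries, removal of mitochondrial genes with the top 20 by abundance, leaving out libraries singly, and CPM of the total count. Leaving out 2 libraries together and the merged exon length were added after seeing the data. Sums of marker lists are CPM of the total count.

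Members and lists were chosen with earlier results of these data known. Values by library are given for E2 genes of cullin-RING ligases, the best known gene of other roles, and the 5 per direction with the smallest p. From each linked list the 2 genes with the smallest p are named. The values of 1 member and 1 ligase gene are not reported here singly, and both stay in the counts, sums and medians.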

Additional observations from a re-analysis of the deposited data

How the results depend on the processing

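No E2 gene was called in any of 16 alternatives, the lowest adjusted p being 0.0868 by DESeq2. Nor was any gene of the linked lists called. Only DESeq2 called any gene, 153 in all, Dcaf8 among them at a log2 fold change of -2.32. The other alternatives called no gene, Dcaf8 included, so their lack of calls says nothing particular about the E2 genes. By edgeR 2 E2 genes had an unadjusted p under 0.05, against 1 with the replicate block, 1 with the strict filter, 1 without both knockout replicate 3 and wild-type replicate 2 (chosen after seeing the data), and 0 to 3 with single libraries left out. The median log2 fold change of the family ranged from -0.09 to 0.00. The replicate numbers share only a number: deviations of same-numbered libraries correlated at 0.0593, -0.0381 and 0.0058, and 1 of 3 knockout libraries correlated best with its own number. With CPM of the total count 3 E2 genes did not overlap, as before.

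Of 479 single-gene values, 460 kept their direction and 19 turned, in 8 genes. With single libraries left out, log2 fold changes ranged from -0.23 to 0.10 for Ube2a, -0.28 to 0.94 for Ube2cbp, -0.05 to 0.21 for Ube2e1, -0.15 to 0.09 for Ube2k, -0.40 to 0.06 for Ube2m, -0.05 to 0.55 for Ube2q2, -1.17 to -0.26 for Ube2o and -0.40 to 0.84 for Ube2v1. Without both libraries Ube2a stood at 0.12, Ube2m at 0.21, Ube2o at 0.20 and Ube2v1 at -0.73, and with limma-voom Ube2m stood at 0.00. The cause was not tested. With 50 cells and 3 mice a group, Ube2q1, Ube2v1, Ube2o and Ube2cbp, all under 20 CPM, had the widest intervals, and Ube2v1 did not pass the strict filter.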
